A study of Rattus norvegicus with 8 samples.

Results

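The genes described here mark microglia, the resident macrophages of the brain, together with other macrophages and leukocytes. A list of 34 such genes was followed, taking probe sets annotated to exactly 1 gene and averaging the log2 ratios of a gene's probe sets on each array type. Of these 34 genes 33 were measured, out of 13810 named genes in all: 29 on chip A, 6 on chip B, and 2 of them (Laptm5 and Cybb) on both. Spi1, which encodes the myeloid transcription factor PU.1, had no single-gene probe set. The RNA came from brain cells of rats at postnatal day 7, selected in a flow cytometer by A2B5, an antibody epitope on gangliosides of immature glia, together with OTMP. The labels call the cells perineuronal oligodendrocytes. There were 4 biological replicates, each read on the array types chip A and chip B, which made 8 samples, with 1 cell population and no control group. Neither strain nor the number of animals in a replicate is stated in the labels, and p-values measure only the spread between these replicates.

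Microglia settle in the brain before birth and are maintained by signalling through the receptor CSF1R under the transcription factors PU.1 and IRF8. They clear dying cells and excess synapses, and in brain they are the main source of the complement component C1q. In white matter of the first postnatal weeks they also take up oligodendrocyte precursors and support myelination. They are a cell type that a sort for oligodendrocytes is meant to leave out.

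Every value was a ratio, the signal of a probe set over that of an unnamed reference. A ratio below 1 therefore says that the signal was lower than in that reference, and not that the gene was silent. Array medians lay between 0.903 and 0.946 on chip A and between 0.888 and 0.967 on chip B, and pairs of replicates correlated across probe sets with r from 0.716 to 0.792 and from 0.710 to 0.786. Replicate 3 stood apart from the other replicates for the genes described here, and the counts for each array type are also given without it. In bulk RNA of sorted cells, fewer cells of a type and less RNA per cell cannot be told apart.

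On chip A all 29 measured genes had a mean ratio below 1, against 66.3% of all 13494 features. Their median mean log2 ratio was -0.58 (a ratio of 0.668), against -0.12 (0.921) over all features. In limma's test against a ratio of 1, 18 of the 29 were lower and 0 were higher at an adjusted p under 0.05 (25 had an unadjusted p under 0.05), where 31.2% of all features were lower and 9.57% higher. Lower ratios of the 18 ran from 0.364 to 0.837 on average. Without replicate 3 the lower genes numbered 22, against 27.9% of all features. The count, and its excess over all features, was less firm in other respects. It was 6 without replicate 1 (24.6% of all features lower), 7 without replicate 2 (27%) and 4 without replicate 4 (24.5%). It was also 6 after each array was centred on its median, which raised log2 ratios by 0.12 on average. After centring, 23.6% of all features were lower and 12.5% higher, so that higher calls made up 34.7% of all calls, against 23.5% before. Without replicate 1, 2 or 4, and after centring, the 29 genes were thus called lower less often than all features. Lgals3, Cd74, Cd14 and Irf8 passed as lower in all 9 alternatives tried.

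Low ratios were also common among genes not expected in brain cells. Of 70 genes of other organs measured on chip A (testis, pancreas, mammary gland, liver, muscle, skin and the like), 39 were lower and 0 higher, with a median ratio of 0.776. That was 55.7%, beside 62.1% of the 29 microglia, macrophage and leukocyte genes and 31.2% of all features. The microglia, macrophage and leukocyte genes varied more between replicates. Their median SD was 0.44 on the log2 scale, against 0.09 for the genes of other organs and 0.20 over all features. Of the 29 genes, 27 had an SD above the median of all features.

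The spread had 1 main direction. Median ratios of the 29 genes were 0.651 in replicate 1, 0.575 in replicate 2, 0.962 in replicate 3 and 0.522 in replicate 4. Over all features the same medians were 0.899, 0.924, 0.939 and 0.903. Replicate 3 held the highest ratio of 27 of the 29 genes, against 35.5% of all features. Replicate 4 held the lowest ratio of 19 genes and replicate 2 that of the other 10, against 34.8% and 20.2% of all features. Both together, highest in replicate 3 and lowest in replicate 4, occurred in 17 genes (58.6%), against 16.5% of all features. In replicate 3, 24 of the 29 ratios lay between 0.85 and 1.15, where 42.1% of all features did. The numbers in that band were 3, 3 and 0 in replicates 1, 2 and 4, against 35.4%, 41.0% and 37.3% of all features. Replicates 1, 2 and 4 all lay below 1 for each of the 29 genes, against 48.0% of all features. The plot of chip A values shows this gene by gene.

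**Figure D1:**
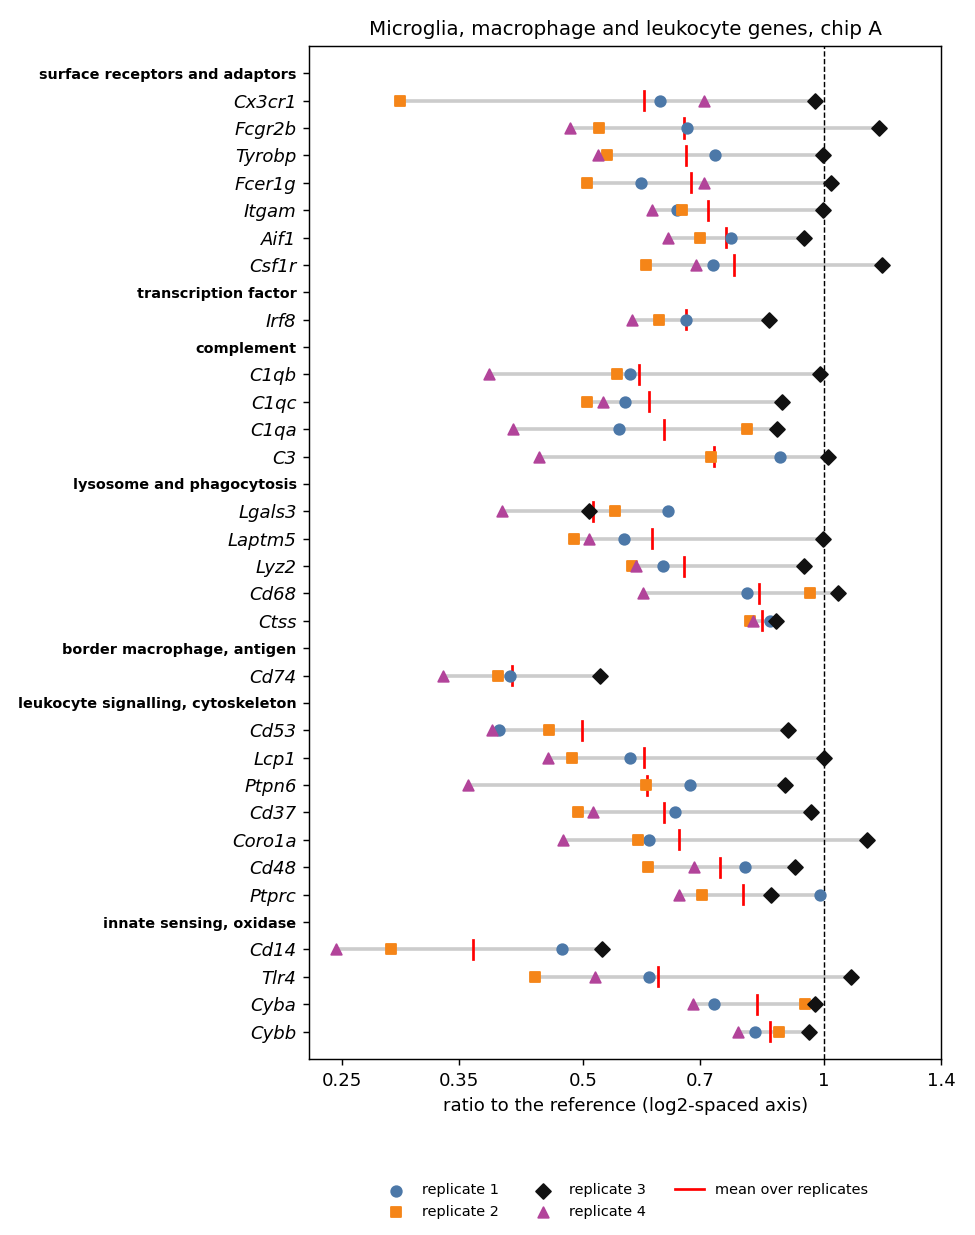
Ratio to the reference of the 29 microglia, macrophage and leukocyte genes on chip A, by role, on a log2-spaced axis. Each symbol is 1 replicate, the red tick is the mean of the 4 log2 values as a ratio, and the dashed line marks 1; the black diamond of replicate 3 is rightmost in 27 of the 29 genes and lies near 1 in most.

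The stretch before the transcription starts of these genes was read for short motifs. PU.1 binds purine-rich sites with a GGAA core, of which GAGGAA is a common form in myeloid genes. RefSeq promoter sequences of assembly GRCr8 (250 bases before to 50 after the start) were matched by symbol for 25 of the 34 genes. Of these 25, 16 held GAGGAA or its reverse complement TTCCTC (64%), against 27.6% of 33469 promoters of the same length. TATAAA, the core of the TATA box, was in 3 of the 25 (12%) against 14.2% of all. Both motifs were searched on both strands. These matches describe letters in a window and do not show binding. The genes were listed as markers of microglia, macrophages and leukocytes, and whether the motif goes with their ratios was not tested. Genes that did not pass, such as Csf1r, Tlr4 and Trem2, held GAGGAA or TTCCTC too. The 150 bases just before the start are printed 5′ to 3′ for 6 genes called lower on chip A that had a match within them, and for C1qa, which had none. Cd14, Cd74 and Itgam, also called lower, had a match there too and are not printed. Irf8, Ptpn6 and Cd48, called lower as well, had none there, as C1qa. Capitals mark GAGGAA or TTCCTC, at 90 bases before the start in C1qb, 77 in Cd37, 44 in Cd53, 63 in Laptm5, 46 in Lyz2 and 15 in Ctss.
C1qb, chr5:154407828-154407977, minus strand: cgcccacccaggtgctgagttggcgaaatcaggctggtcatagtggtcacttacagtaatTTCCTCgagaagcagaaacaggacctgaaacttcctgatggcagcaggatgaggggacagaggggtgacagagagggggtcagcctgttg
Cd37, chr1:104860785-104860934, minus strand: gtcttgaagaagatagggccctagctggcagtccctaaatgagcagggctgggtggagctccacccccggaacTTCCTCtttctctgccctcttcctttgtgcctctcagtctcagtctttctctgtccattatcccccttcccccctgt
Cd53, chr2:197087897-197088046, minus strand: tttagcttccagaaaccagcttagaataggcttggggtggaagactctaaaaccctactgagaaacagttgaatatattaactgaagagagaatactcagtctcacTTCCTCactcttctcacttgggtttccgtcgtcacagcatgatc
Laptm5, chr5:148371730-148371879, plus strand: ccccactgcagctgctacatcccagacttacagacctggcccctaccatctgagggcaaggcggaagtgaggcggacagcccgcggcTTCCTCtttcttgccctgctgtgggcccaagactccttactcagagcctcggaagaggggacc
Lyz2, chr7:54798012-54798161, minus strand: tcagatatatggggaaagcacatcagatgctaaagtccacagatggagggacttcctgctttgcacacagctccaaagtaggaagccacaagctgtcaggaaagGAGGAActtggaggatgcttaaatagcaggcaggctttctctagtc
Ctss, chr2:185775246-185775395, plus strand: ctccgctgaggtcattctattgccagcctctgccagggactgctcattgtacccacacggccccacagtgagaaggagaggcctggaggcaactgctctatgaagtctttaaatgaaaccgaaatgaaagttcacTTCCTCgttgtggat
C1qa, chr5:154419934-154420083, minus strand: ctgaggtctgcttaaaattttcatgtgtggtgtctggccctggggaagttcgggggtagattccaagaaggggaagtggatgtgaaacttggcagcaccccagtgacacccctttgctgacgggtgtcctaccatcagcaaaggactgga

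Surface receptors and their adaptors had 3 of 7 genes lower on chip A (42.9%, against 31.2% of all features). Cx3cr1, the receptor for the neuronal chemokine fractalkine and a marker of microglia, had ratios of 0.623, 0.295, 0.973 and 0.707 in replicates 1 to 4. It thus had its lowest ratio in replicate 2, and at a mean log2 ratio of -0.75 ± 0.73 (SD, n = 4) it did not pass (limma adjusted p = 0.0833). Csf1r, the receptor for the survival factors CSF1 and IL-34, stood at 0.726, 0.6, 1.18 and 0.692. It lay above 1 in replicate 3 alone and did not pass (-0.37 ± 0.42, limma adjusted p = 0.136), but passed without replicate 3 (-0.58, 0.012).

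Tyrobp and Fcer1g encode the signalling adaptors DAP12 and the Fc receptor gamma chain, which carry signals for receptors that lack a tail of their own. Tyrobp had ratios of 0.731, 0.536, 0.998 and 0.522 and was lower (-0.57 ± 0.44, limma adjusted p = 0.0468). Fcer1g had 0.590, 0.506, 1.02 and 0.707 and did not pass (-0.55 ± 0.44, limma adjusted p = 0.0519). In both genes replicate 3 was at the reference and the other replicates well below it. Fcgr2b, the inhibitory Fc receptor for IgG, showed the pattern with a wider span, at 0.674, 0.524, 1.17 and 0.482 (-0.58 ± 0.58, limma adjusted p = 0.0898).

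Itgam, the alpha chain of complement receptor 3 (CD11b), had ratios of 0.655, 0.664, 0.997 and 0.609 and was lower (-0.48 ± 0.32, limma adjusted p = 0.0361). Replicates 1, 2 and 4 lay close together and apart from replicate 3. Its partner chain gene Itgb2 was measured on chip B, described below. Aif1, whose product IBA1 is the usual histological marker of microglia, averaged 0.764, 0.7, 0.944 and 0.639 and was lower (-0.41 ± 0.24, limma adjusted p = 0.0308). Its 2 probe sets disagreed in replicate 2, at 0.502 and 0.975, and neither passed alone (limma adjusted p = 0.0568 and 0.105).

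Irf8, the transcription factor gene that with PU.1 directs the myeloid programme, had ratios of 0.673, 0.622, 0.853 and 0.575. All 4 lay below 1, and the gene was lower (-0.57 ± 0.25, limma adjusted p = 0.0102).

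Of the 4 complement genes 3 were lower (75%, against 31.2% of all features). C1qb, C1qc and C1qa encode the 3 chains of C1q and follow each other as neighbouring protein-coding genes on chromosome 5 in the RefSeq table. C1qb had ratios of 0.572, 0.552, 0.988 and 0.382 (-0.77 ± 0.56, limma adjusted p = 0.0383). C1qc had 0.564, 0.506, 0.887 and 0.529 (-0.73 ± 0.37, limma adjusted p = 0.0137). C1qa had 0.554, 0.800, 0.874 and 0.409 (-0.66 ± 0.50, limma adjusted p = 0.0435). All 3 were highest in replicate 3. In replicate 2 they parted, with C1qa close to its replicate 3 ratio and the other chains near 0.5. C3, the central component that C1q activation leads to, had 0.882, 0.722, 1.01 and 0.440 and did not pass (-0.46 ± 0.52, limma adjusted p = 0.133). Of 12 other complement and regulator genes on chip A, 4 were lower (33.3%) and 1 higher (8.33%), close to the 31.2% and 9.57% of all features, with a median ratio of 0.949. Masp1, a lectin pathway protease gene, was the higher one at 0.89 ± 0.30 (limma adjusted p = 0.00337), while Masp2, another protease gene of that pathway, stood at -0.99 ± 0.06 (0.000234) and Cfd, the gene for factor D, at -0.82 ± 0.31 (0.00484).

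Among genes of lysosomes and phagocytosis 4 of 5 were lower on chip A (80%, against 31.2% of all features). Laptm5, a lysosomal membrane protein gene of blood cells, had ratios of 0.563, 0.487, 0.997 and 0.508 (-0.71 ± 0.48, limma adjusted p = 0.0304). Lyz2, which encodes lysozyme, had 0.629, 0.575, 0.945 and 0.582 (-0.58 ± 0.34, limma adjusted p = 0.0221). Both were at or near the reference in replicate 3 only. Ctss, the gene for the protease cathepsin S, was unlike the rest in being even, at 0.856, 0.809, 0.870 and 0.816. Its SD of 0.05 was the smallest of the 29 genes, and it was lower by a small amount (-0.26, limma adjusted p = 0.0251). Cd68, a late endosome protein gene used as a macrophage marker, had 0.801, 0.960, 1.04 and 0.594 and did not pass (-0.27 ± 0.36, limma adjusted p = 0.203).

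Lgals3 departed from the shared pattern. It encodes galectin-3, a lectin of activated macrophages that other cell types also make. Its ratios were 0.639, 0.548, 0.509 and 0.396, so that replicate 1 and not replicate 3 was highest. It was lower (-0.96 ± 0.29, limma adjusted p = 0.00236), and it was the only one of the 29 whose replicate 3 value did not exceed the mean of the other replicates (a difference of -0.02).

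Cd74, the invariant chain of MHC class II, had ratios of 0.405, 0.391, 0.525 and 0.334 and was the second lowest gene (-1.29 ± 0.27, limma adjusted p = 0.000659). It was far below 1 in every replicate, with replicate 3 the least low. Of 7 MHC class II genes on chip A, 5 were lower (71.4%, against 31.2% of all features) and 0 higher. All 7 had an unadjusted p under 0.05, and their median ratio was 0.633. RT1-Da, a class II alpha chain gene, had the lowest mean of these 7 (-1.51 ± 0.29, limma adjusted p = 0.000451). RT1-DMa, which helps load peptide onto class II, had ratios of 0.506, 0.517, 1.01 and 0.453 (-0.77 ± 0.53, 0.0317), as in the C1q genes highest in replicate 3. RT1-Ba, another alpha chain gene, stood at -0.71 ± 0.16 (limma adjusted p = 0.00173), and at -1.66 ± 0.01 on chip B (6.33e-05).

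Genes shared by leukocytes in general had 5 of 7 members lower on chip A (71.4%, against 31.2% of all features). Cd53, a tetraspanin gene of white blood cells, had ratios of 0.393, 0.453, 0.901 and 0.385 (-1.0 ± 0.58, limma adjusted p = 0.0171). Its replicate 3 value exceeded the mean of the others by 1.14 on the log2 scale, the widest gap among the 29. Cd37, another tetraspanin gene, had 0.651, 0.493, 0.962 and 0.514 (-0.66 ± 0.44, limma adjusted p = 0.0301). Lcp1 encodes the actin-bundling protein L-plastin and had 0.572, 0.484, 1 and 0.452 (-0.75 ± 0.52, limma adjusted p = 0.0331). In these 3 genes replicate 3 was again near the reference and the other replicates were low. Coro1a, the gene for an actin regulator of leukocytes, had 0.604, 0.586, 1.13 and 0.472 and did not pass (-0.60 ± 0.54, limma adjusted p = 0.0692) except without replicate 3 (-0.86, 0.00597).

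Ptpn6, which encodes the phosphatase SHP-1, had ratios of 0.680, 0.599, 0.893 and 0.359 and was lower (-0.73 ± 0.55, limma adjusted p = 0.0408). Cd48, a ligand gene of the SLAM family, had 0.796, 0.602, 0.920 and 0.687 and was lower (-0.43 ± 0.26, limma adjusted p = 0.0318). Ptprc, which encodes the pan-leukocyte antigen CD45, averaged 0.988, 0.703, 0.859 and 0.658, did not pass (-0.34 ± 0.27, limma adjusted p = 0.0686), and was the other gene highest in replicate 1. That order came from its probe set with the larger spread, at 1.07, 0.545, 0.774 and 0.521, where the other probe set ran evenly from 0.832 to 0.953.

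Of 4 genes of innate sensing and the phagocyte oxidase on chip A, 1 was lower (25%, against 31.2% of all features). This was Cd14, the co-receptor for bacterial lipopolysaccharide, which had the lowest mean of all 29 genes. Its ratios were 0.470, 0.288, 0.528 and 0.246 (-1.46 ± 0.53, limma adjusted p = 0.0034). No replicate came near the reference, although replicate 3 was again highest. Tlr4, the receptor it serves, had 0.605, 0.436, 1.08 and 0.517 and did not pass (-0.69 ± 0.57, limma adjusted p = 0.0544), but passed without replicate 3 (-0.96, 0.00601). The subunits of the phagocyte NADPH oxidase, averaged by gene, were closer to 1 on chip A. On chip B, described below, Cybb was not (mean ratio 0.588). Cybb, the catalytic subunit gene of the oxidase, had 0.820, 0.878, 0.958 and 0.780 on chip A (-0.22 ± 0.13, limma adjusted p = 0.0686). Cyba averaged 0.728, 0.947, 0.975 and 0.686 (-0.28 ± 0.26, limma adjusted p = 0.105). Its probe sets differed, at -0.59 ± 0.41 (limma adjusted p = 0.0388) and 0.04 ± 0.22 (0.813).

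On chip B 6 genes were measured, and none passed in limma: 0 were lower or higher at an adjusted p under 0.05 (3 at an unadjusted p under 0.05), where 28.6% of all 13379 features were lower and 5.46% higher. With a trended, robust prior 1 passed, Trem2, against 28.7% of all features. Without replicate 3, 4 of the 6 were lower, against 26% of all features. Itgb2, the beta chain that pairs with CD11b, had ratios of 0.594, 0.704, 1 and 0.410 (-0.64 ± 0.53, limma adjusted p = 0.0932). Trem2, the lipid-sensing receptor that signals through DAP12, averaged 0.735, 0.672, 1 and 0.584 (-0.45 ± 0.33, limma adjusted p = 0.0701). Both showed the order seen on chip A, with replicate 3 highest and replicate 4 lowest.

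Laptm5 and Cybb were read on chip B by probe sets of their own. Laptm5 had ratios of 0.818, 0.864, 1 and 0.797 there, a smaller departure than on chip A (-0.21 ± 0.15, limma adjusted p = 0.0923). Cybb had 0.614, 0.423, 1.19 and 0.386, a larger one (-0.77 ± 0.74, limma adjusted p = 0.127). Replicate 3 was highest for both genes on both array types, and how far a gene lay from the reference depended on the probe set. On chip B 4 of the 8 member probe sets held a ratio of exactly 1 in replicate 3, against 8.14% of all probe sets on that array. The numbers were 1, 1 and 0 in replicates 1, 2 and 4, against 3.55%, 4.04% and 7.61%. On chip A 0 of 32 member probe sets held exactly 1 in each replicate, and 0.321% of all probe sets did in replicate 3. A value of exactly 1 means that the array equalled the unnamed reference, and whether replicate 3 was part of that reference was not tested.

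Mrc1 and Cd163, markers of macrophages at the brain's borders, along vessels and in the meninges, had means close to 1 on chip B. Cd74, grouped with them by role, was low on chip A (mean ratio 0.408). Mrc1, the mannose receptor CD206, had ratios of 1.53, 1.09, 1.08 and 0.454 (-0.07 ± 0.75, limma adjusted p = 0.869), with replicate 1 highest. Cd163, the scavenger receptor for haemoglobin, averaged 1.11, 0.991, 1.28 and 0.709 (0.00 ± 0.36, limma adjusted p = 0.999). Replicate 4 was lowest for both, as for all 6 genes on chip B, where it held the lowest ratio of 16.4% of all features. The difference between Mrc1 or Cd163 and the other genes was not tested.

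**Figure D2:**
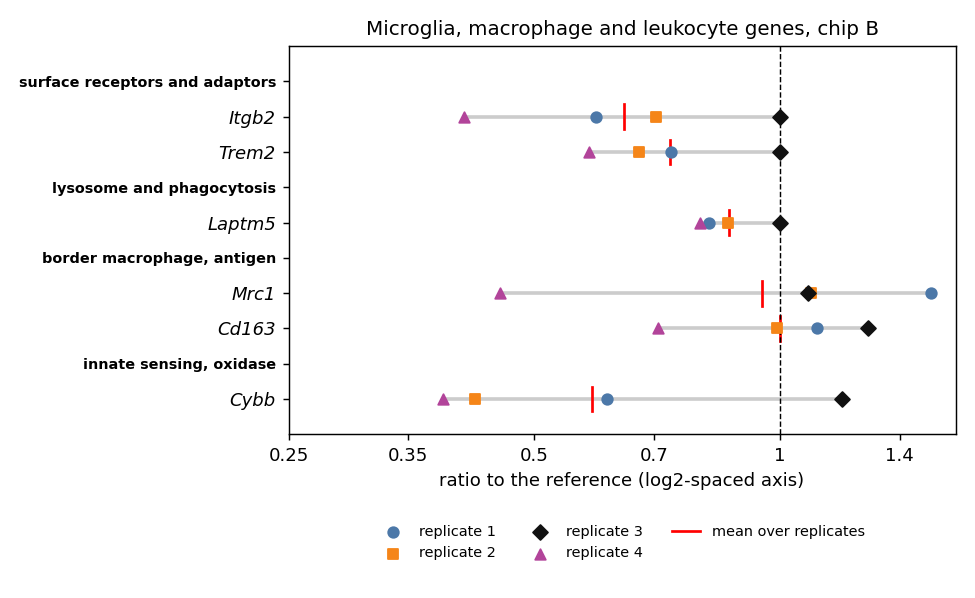
Ratio to the reference of the 6 genes measured on chip B, on a log2-spaced axis, with symbols, red ticks and dashed line as for chip A. Replicate 4 is lowest in all 6 and replicate 3 highest in 5, while Mrc1 is highest in replicate 1.

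A wider list of microglia and macrophage genes was read in the same way. On chip A 31 of 65 (47.7%) were lower and 0 higher (44 at an unadjusted p under 0.05), against 31.2% of all features lower, with a median ratio of 0.702. Replicate 3 held the highest ratio of 43 of the 65, against 35.5% of all features, and the list's medians were 0.705, 0.651, 0.891 and 0.650. On chip B 5 of 29 (17.2%) were lower and 0 higher (14 at an unadjusted p under 0.05), a smaller share than the 28.6% of all features. On that array type replicate 3 was highest in 24, against 26.1% of all features. The lowest on chip A among those that passed were Evi2a at -1.37 ± 0.60 (limma adjusted p = 0.00644), Cd4, a receptor gene that rat macrophages also express, at -1.29 ± 0.12 (0.000174), and the chemokine gene Ccl2 at -1.22 ± 0.89 (0.0342). On chip B they were Tlr8 at -0.82 ± 0.03 (limma adjusted p = 0.000177), Clec4a1 at -0.75 ± 0.40 (0.0255) and Ccl6 at -0.34 ± 0.11 (0.0134).

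Some cytokine genes in that list ran differently, and those given here were singled out after their values were seen. Ccl2 had ratios of 0.404, 0.223, 0.380 and 0.986. Il1b, which encodes interleukin-1 beta, had 0.493, 0.462, 0.395 and 0.799. Tnf had 0.706, 0.706, 0.593 and 0.955, and Ccl3 had 0.619, 0.530, 0.666 and 1.03. All 4 genes were highest in replicate 4, the replicate in which most microglia, macrophage and leukocyte genes were lowest. Ccl4 and Cxcl16 were also highest in replicate 4. Other chemokine genes of the list did not share this on chip A: Ccl5 had 0.791, 0.833, 1.08 and 0.727, and Ccl6 had 0.408, 0.525, 0.581 and 0.356, both highest in replicate 3 and lowest in replicate 4. Il1b (-0.95 ± 0.44, limma adjusted p = 0.00856), Tnf (-0.46 ± 0.29, 0.0318) and Ccl3 (-0.54 ± 0.41, 0.0471) were lower on average.

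Genes of other cell types were set beside these, replicate by replicate. Lymphocyte genes varied little, with a median SD of 0.10. Their median ratio of 0.898 was near the 0.921 of all features, and 7 of 16 (43.8%) on chip A were lower and 0 higher (7 at an unadjusted p under 0.05), against 31.2% of all features lower. Cd3d, a chain of the T cell receptor complex, stood at -1.10 ± 0.06 (limma adjusted p = 0.000174), Cd79b, of the B cell receptor, at -0.96 ± 0.06 (0.000254) and the T cell co-receptor gene Cd8a at -0.81 ± 0.09 (0.000543). The lymphocyte medians on chip A, 0.759, 0.856, 0.920 and 0.882, were also highest in replicate 3, by a smaller margin. On chip B 4 of 9 lymphocyte genes (44.4%) were lower and 0 higher, against 28.6% of all features lower. Ms4a1 stood there at -1.76 ± 0.06 and Cd3e at -1.61 ± 0.03 (both limma adjusted p = 6.33e-05). Cd3e did not pass on chip A (0.03 ± 0.16, limma adjusted p = 0.82). Endothelial genes on chip A also varied (median SD 0.57), in another order, with medians of 0.697, 1.34, 1.19 and 1.19. They were lowest in replicate 1 in 14 of 16 genes and highest in replicate 3 in 0, against 26.0% and 35.5% of all features. Mural cell and fibroblast genes on chip A were highest in replicate 3 in 12 of 15 (35.5% of all features), with medians of 0.968, 0.852, 1.05 and 0.952.

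Lineage markers were read in the same fit, although the label of the sort itself was not tested. On chip A 4 of 16 oligodendrocyte lineage genes were higher (25%), 1 lower and 11 not called, with a median ratio of 1.05. Over all features 9.57% were higher and 31.2% lower. The highest lineage genes were Cspg5 (1.74 ± 0.16, limma adjusted p = 0.000135), Bcan (1.04 ± 0.16, 0.000457) and Pdgfra (0.93 ± 0.65, 0.0322). On chip B 0 of 4 lineage genes were higher and 1 lower, against 5.46% and 28.6% of all features. Of 17 astrocyte genes on chip A 12 were higher (70.6%) and 0 lower (13 at an unadjusted p under 0.05). Of 19 neuron genes there 7 were higher (36.8%) and 0 lower (10 at an unadjusted p under 0.05), with a median ratio of 1.28. On chip B 1 of 2 astrocyte genes was higher and 1, Sox9, was lower (-1.73 ± 0.01, limma adjusted p = 6.33e-05). Of 2 neuron genes there 0 were higher and 1, Syt1, was lower (-0.45 ± 0.03, limma adjusted p = 0.00127). On chip A astrocyte genes had medians of 2.50, 1.68, 2.82 and 1.92, and oligodendrocyte lineage genes 1.20, 0.897, 1.13 and 1.21. Thus the astrocyte median too was highest in replicate 3, and the lineage median in replicate 4. Their part in the values of the microglia, macrophage and leukocyte genes was not tested.

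**Figure D3:**
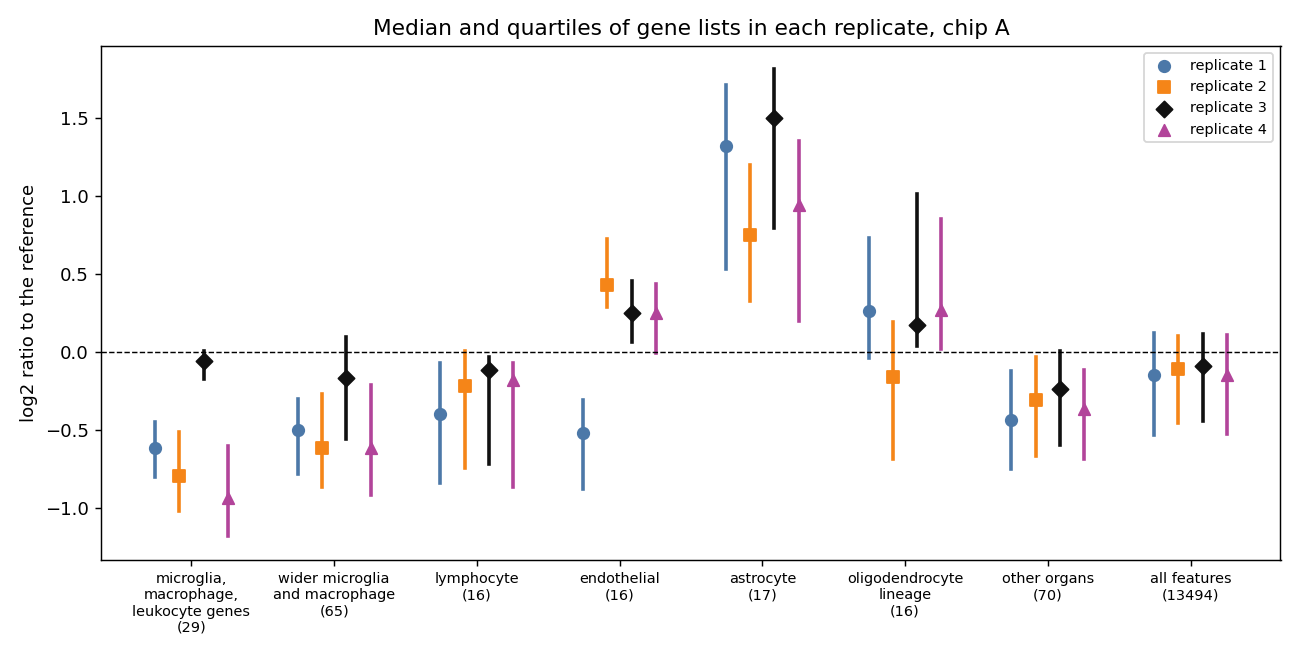
Log2 ratio to the reference on chip A for 8 sets of genes, with the number measured in brackets. Symbols are medians over genes in 1 replicate and bars run between the quartiles; for the microglia, macrophage and leukocyte genes the median is -0.06 in replicate 3 and -0.62, -0.80 and -0.94 in replicates 1, 2 and 4.

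The distance of replicate 3 from the others summed up the shared movement. On chip A the log2 ratio in replicate 3 exceeded the mean of replicates 1, 2 and 4 in 28 of 29 genes, against 59.9% of all features. The median excess was 0.71, with a range from -0.02 to 1.14, against a median of 0.06 over all features. An excess above 0.5 occurred in 19 of the 29 (65.5%), against 6.67% of all features. On chip B the median excess was 0.54 over the 6 genes, against 0.04, and 3 of the 6 exceeded 0.5, against 5.02%. On chip A an excess above 0.5 also occurred in 46.7% of mural cell and fibroblast genes, 42.9% of MHC class II genes, 32.3% of the wider list and 25% of oligodendrocyte lineage genes. The share was 17.6% in the astrocyte list, 12.5% in the endothelial list, 10.5% in the neuron list, 2.86% among genes of other organs and 0 of 16 in the lymphocyte list. The excess was therefore not confined to the microglia, macrophage and leukocyte genes. As replicate 3 was singled out after its values were seen, and each replicate is 1 sample, these shares are a description with no test.

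**Figure D4:**
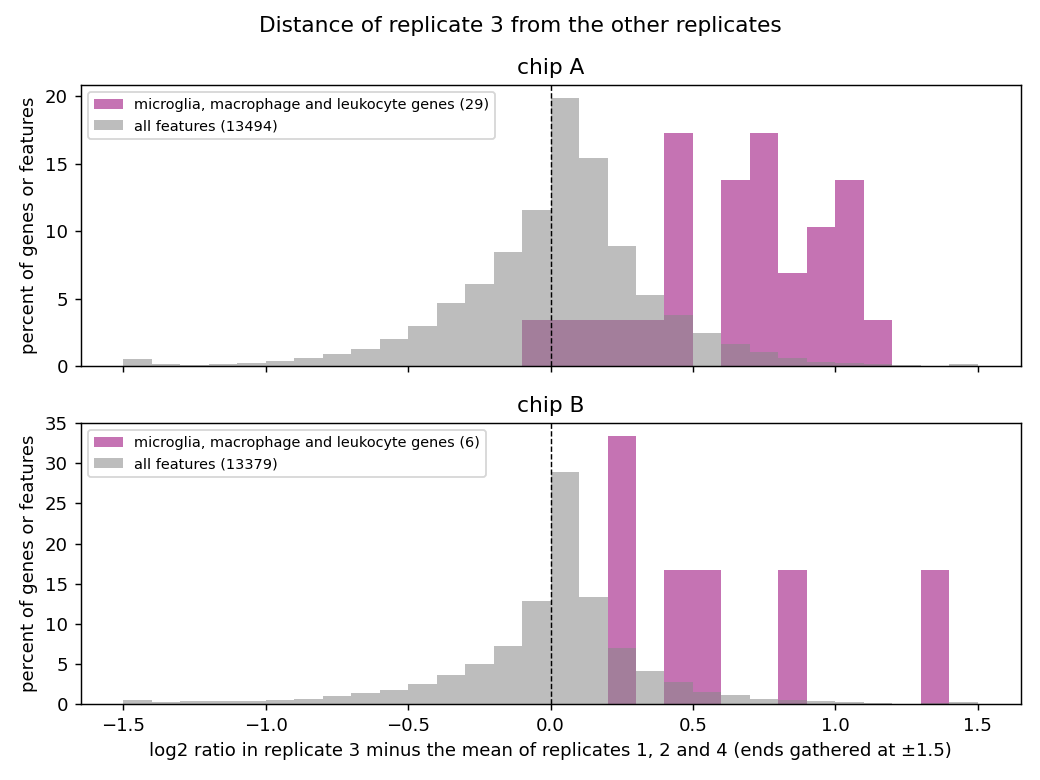
Log2 ratio in replicate 3 minus the mean of replicates 1, 2 and 4, as the percent of genes or features in each bin of 0.1, for chip A (upper) and chip B (lower). The microglia, macrophage and leukocyte genes lie mostly to the right of 0.4 on chip A, with a median of 0.71, while all features peak near 0.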

How the data were processed

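Total RNA of 4 biological replicates was hybridized to 2 types of Affymetrix array. The submitters' processing notes name RMA and no version. The deposited values are linear ratios to an unnamed reference, and no step that made ratios is recorded in the labels. The authors' ratios were put on the log2 scale. Of the probe sets, 57 controls per type were dropped, so that chip A kept 15866 and chip B 15276. The platform annotation gave 1 symbol to 12783 and 7564 of these, several to 312 and 100, and none to 2771 and 7612. In the RefSeq table (GRCr8), 12748 and 7524 single-gene probe sets had their gene ID, with 0 symbols updated. A gene's probe sets were averaged, and probe sets with no or several symbols stayed as features of their own.

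Each array type was fitted apart with limma 3.58.1 in R 4.3.3 (an intercept, eBayes, two-sided against a ratio of 1, which is 0 on the log2 scale), with Benjamini-Hochberg adjustment over all features at 0.05. The prior had 2.47 degrees of freedom on chip A and 1.58 on chip B, beside 3 residual ones. The fit was tested on simulated data with known shifts. On chip A it recovered 10 of 50 shifts of -0.5 and 41 of 50 shifts of -1 on the log2 scale. On chip B it recovered 25 of 50 and 41 of 50. All other simulated features were unshifted, whereas in the data 31.2% of chip A features were called lower. The adjustment was therefore stricter in the simulation, and its recovery does not give the sensitivity of the fit used. Not passing does not show that a gene was unshifted. Alternatives were centring arrays on their median, a trended, robust prior, single probe sets, the median over probe sets, only genes with 1 symbol, and leaving out each replicate. Every member is given. From other lists up to 3 called genes per array type with the largest mean, in absolute value, are named, except where stated. Sox9 and Syt1 are named as the astrocyte and neuron genes called lower on chip B. The members and lists were chosen with earlier results of these data known. The number of arrays limits the precision.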

Additional observations from a re-analysis of the deposited data

How the results depend on the processing

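The mean of each of the 29 genes on chip A stayed below a ratio of 1 in every alternative run, except that among single probe sets 1 of the 2 for Cyba stood at 0.04. The number that passed did change. There were 18 lower genes, against 31.2% of all features, and array centring left 6 (23.6% of all features). Leaving out 1 replicate gave 4 to 22. The counts were 6 without replicate 1 (24.6% of all features) and 7 without replicate 2 (27%). They were 22 without replicate 3 (27.9%) and 4 without replicate 4 (24.5%). With a trended, robust prior 20 passed (31.2% of all features lower) and with single probe sets 17 (30.1%). With the median over probe sets 18 passed (30.9%), and among genes with 1 symbol only 20 (32.9%). On chip B 0 genes passed (28.6% of all features lower), and 1 with a trended, robust prior (28.7%). With a replicate left out 0 to 4 passed, the 4 being without replicate 3 (26%). Mrc1 changed sign after centring (0.03) and without replicate 4 (0.28), with a range from -0.30 to 0.28 over the replicates left out. Cd163 changed sign without replicate 1 (-0.05) and without replicate 3 (-0.12), with a range from -0.12 to 0.17, and neither gene passed in any of these. Over all chip B features, lower calls numbered 1750 and higher calls 234 among genes with 1 symbol only, against 3822 and 731, where 5667 features were tested in place of 13379. Replicate 3 held the highest ratio of 26 chip A genes after centring and of 27 with the median over probe sets, against 27, and of 5 chip B genes in each. No paired analysis was possible because the study has 1 cell population and no groups to compare. None of the 37 sets of 4 values tested held a replicate past Dixon's 95% critical value. With 4 arrays and ratios only, brightness over background is unknown.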
